A study of Mus musculus with 6 samples.

Results

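The genes described here are the adhesion machinery that holds basal keratinocytes to the basement membrane, together with Trp63, the transcription factor of basal epithelium. They are 8 genes: Lamb3, Itga6, Itgb4, Itga3, Itgb1, Col17a1, Dst and Trp63. Every probe set whose annotated symbol was 1 of these genes was taken, which gave 22 of the 45101 probe sets of the array. Of these 22, 18 were bright enough to enter the tests, with at least 1 for each gene, among 27022 probe sets tested in all. Hair bulbs of mice at postnatal day 9 had been profiled on 6 one-colour arrays in 3 groups of 2. The emN1 group came from skin areas deleted in the embryo and had no functional Notch1. The anN1 group came from areas deleted in anagen, the growth phase of the hair cycle, and still had functional Notch1, and the last group was wild-type. The arrays named anN1 and wild-type were the study's 4 controls. The sources used here give no strain, sex or promoter that drove the deletion. Replicate 1 of emN1 and anN1 formed array set 1, and the other 4 arrays formed set 2.

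Hemidesmosomes are rivets that tie the keratin filaments of a basal cell to the basement membrane. The integrin α6β4 and the transmembrane collagen XVII bind laminin-332 outside the cell, and the plakins BPAG1 (from Dst) and plectin link them to keratins inside it. Integrin α3β1 binds the same laminin and connects to actin. In the hair follicle these genes are expressed in the outer root sheath, which is continuous with the basal epidermis, but not all are limited to it. Dst, for example, also has longer forms in neurons and muscle. Their signals in a bulk hair bulb are therefore not readings of the outer root sheath alone. The product of Trp63, p63, is needed to form and keep stratified epithelia. Notch receptors act through the DNA-binding protein RBPJ, and Notch signalling in skin is known for its part in differentiation and follicle maintenance.

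The deposited values are signals in arbitrary units. Differences are given on the scale log2(signal + 17.8), emN1 minus controls unless another pair is named, with the array set as a term. A call means an adjusted p under 0.05 from limma with Benjamini-Hochberg adjustment over all 27022 probe sets. Undetected bacterial control probe sets had a 95th percentile of 112, which serves as the background limit below.

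In emN1 bulbs 3 of the 8 genes rose: Lamb3, Dst and Col17a1. They were called higher on 4 of the 18 probe sets and none was called lower. Over all probe sets tested, 2.41% were called higher and 1.37% lower. Integrin and Trp63 probe sets did not pass. The median difference of the 18 was 0.49, against -0.01 over all probe sets tested, and 14 of the 18 lay above 0. On 6 of them both emN1 arrays exceeded every control array, and on 1 both lay below. The 4 calls were lost without the intensity trend of the test, and without emN1 replicate 1, emN1 replicate 2 or anN1 replicate 1. All but that of the brightest Dst probe set were lost without the array set as a term (adjusted p = 0.0935 for Col17a1, 0.497 for Lamb3 and 0.115 for the second Dst probe set), though all 4 differences stayed above 0. Separation of the 2 emN1 arrays was seen above on 9.99% and below on 9.33% of all probe sets tested.

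The windows of 250 bases before the annotated start of the genes that rose are shown because Notch acts on DNA through RBPJ, whose core motif is TGGGAA. Both strands were searched, and a match is in capitals (TTCCCA where it lies on the other strand). They are from RefSeq on GRCm38.p6, printed 5′ to 3′ on the gene's strand.
Col17a1 chr19:47692043-47692292 (- strand): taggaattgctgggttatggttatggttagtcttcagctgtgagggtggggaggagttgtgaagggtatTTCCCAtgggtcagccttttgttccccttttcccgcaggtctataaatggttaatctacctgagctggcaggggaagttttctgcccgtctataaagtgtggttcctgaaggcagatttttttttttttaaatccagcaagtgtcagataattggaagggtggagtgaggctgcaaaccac
Lamb3 chr1:193301744-193301993 (+ strand): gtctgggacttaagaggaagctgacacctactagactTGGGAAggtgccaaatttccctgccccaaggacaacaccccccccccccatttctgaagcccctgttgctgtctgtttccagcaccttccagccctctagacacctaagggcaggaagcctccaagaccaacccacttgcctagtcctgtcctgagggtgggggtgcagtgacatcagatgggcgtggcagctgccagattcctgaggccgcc
Lamb3 chr1:193301993-193302242 (+ strand): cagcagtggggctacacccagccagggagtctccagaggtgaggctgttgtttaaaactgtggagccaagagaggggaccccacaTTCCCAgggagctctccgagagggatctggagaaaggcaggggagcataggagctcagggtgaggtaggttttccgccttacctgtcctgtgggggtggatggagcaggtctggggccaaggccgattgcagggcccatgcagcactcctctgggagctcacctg
Dst chr1:34160010-34160259 (+ strand): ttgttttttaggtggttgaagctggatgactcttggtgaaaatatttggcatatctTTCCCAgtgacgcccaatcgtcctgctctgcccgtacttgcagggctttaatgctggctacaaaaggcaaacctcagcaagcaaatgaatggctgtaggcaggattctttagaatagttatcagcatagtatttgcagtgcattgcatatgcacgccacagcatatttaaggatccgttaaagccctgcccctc
Dst chr1:34011345-34011594 (+ strand): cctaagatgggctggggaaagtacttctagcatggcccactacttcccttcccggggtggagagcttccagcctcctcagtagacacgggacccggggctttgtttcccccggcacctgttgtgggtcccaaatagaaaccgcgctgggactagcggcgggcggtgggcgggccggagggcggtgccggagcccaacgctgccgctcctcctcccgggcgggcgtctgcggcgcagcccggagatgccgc
The table held 8 such windows for 5 of the 8 genes (Dst, Lamb3, Itgb1, Itga3 and Col17a1); Trp63, Itga6 and Itgb4 were not in it. The motif occurred in 4 of the 8: the Col17a1 window, 1 of the Dst windows and both Lamb3 windows, which lie next to each other,, at 181, 194, 213 and 165 bases before the start. It occurred in 21.6% of all 32851 windows of this length. The AP-1 motif TGANTCA, which was also searched on both strands was in 0 of the 8 windows and in 6.75% of all. A match describes these letters and is not a binding site, and no motif difference between the genes that rose and the others was tested.

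Lamb3 encodes the β3 chain of laminin-332, the ligand of both α6β4 and α3β1. Its single probe set (1417812_a_at) had signals of 852 and 2026 in emN1 bulbs, 210 and 619 in anN1 bulbs, and 754 and 821 in wild-type bulbs. The groups did not overlap, but emN1 replicate 1 lay only just above the higher wild-type array. The difference was 1.65 (SE 0.23, adjusted p = 0.00842 by limma), or 3.13-fold. Against anN1 it was 1.81 (SE 0.25, adjusted p = 0.0182), and against wild-type 1.41 (SE 0.28, adjusted p = 0.0580), which did not pass. Within set 1, emN1 was 4.05-fold anN1, and within set 2 it was 3.27-fold anN1 and 2.57-fold the wild-type mean. Both arrays of set 1 were dimmer than their set 2 partners for Lamb3.

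Col17a1 encodes collagen XVII, the transmembrane collagen of the hemidesmosome that binds laminin outside and plakins inside the cell. Its probe set (1418799_a_at) had signals of 2756 and 4449 in emN1 bulbs, 1559 and 1842 in anN1 bulbs, and 1517 and 1867 in wild-type bulbs. All 4 controls lay close together and both emN1 arrays lay clear above them. The difference was 1.14 (SE 0.18, adjusted p = 0.0124 by limma), or 2.20-fold. Against wild-type it was 1.28 (SE 0.22, adjusted p = 0.0355), and against anN1 1.04 (SE 0.20, adjusted p = 0.0508), just short of a call. In set 1 the ratio of emN1 to anN1 was 1.77, and in set 2 it was 2.42.

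Dst encodes the plakin BPAG1, which exists as an epithelial form in hemidesmosomes and as longer forms in neurons and muscle. Its 4 probe sets did not move alike. The brightest (1421117_at) had signals of 9487 and 5472 in emN1 bulbs, 2535 and 2278 in anN1 bulbs, and 1561 and 2089 in wild-type bulbs. Every control was below both emN1 arrays, and emN1 replicate 1 was the highest array. The difference was 1.65 (SE 0.19, adjusted p = 0.00386 by limma), or 3.13-fold. A second probe set (1450119_at) had 2018 and 3236 in emN1 bulbs, 520 and 1103 in anN1 bulbs, and 656 and 1235 in wild-type bulbs. It also separated emN1 from all controls, with a difference of 1.81 (SE 0.27, adjusted p = 0.0103 by limma), or 3.50-fold. These 2 probe sets were drawn from 1 transcript record, so they are not independent readings of the gene.

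Both of these Dst probe sets passed the threshold against each control group. Against anN1 the differences were 1.58 and 1.73 (adjusted p = 0.0174 and 0.0448), and against wild-type 1.75 and 1.92 (adjusted p = 0.0164 and 0.0438). The calls against anN1 ended without the array set as a term (adjusted p = 0.126 and 0.293), without the trend (0.202 and 0.251) and when any single emN1 or anN1 array was left out. Those against wild-type ended without the trend (0.211 and 0.269) and when any single emN1 or anN1 array was left out, and that of 1450119_at also without the set term (0.311). With no filter on dim probe sets, 1450119_at missed against anN1 (0.0511) and wild-type (0.0501). The ratio of emN1 to anN1 was 3.74 and 3.88 in set 1, and 2.40 and 2.93 in set 2.

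The other Dst probe sets came from different transcript records, and which isoforms they read is not given in the sources used here. One (1421276_a_at) had 369 and 401 in emN1 bulbs, 77.0 and 113 in anN1 bulbs, and 106 and 258 in wild-type bulbs. The emN1 arrays again lay above all controls, but 2 control arrays were under the background limit and the difference of 1.62 (SE 0.47) did not pass (adjusted p = 0.112 by limma). The last (1423626_at) had 1133 and 1216 in emN1 bulbs, 1395 and 1122 in anN1 bulbs, and 1285 and 1001 in wild-type bulbs. Its groups overlapped, and its difference of -0.06 (SE 0.19, adjusted p = 0.933) had a 95% interval of -0.50 to 0.39. The log2 ratio of 1421117_at to 1423626_at was 3.05 and 2.15 in emN1 bulbs, 0.85 and 1.01 in anN1 bulbs, and 0.28 and 1.05 in wild-type bulbs. It was 1.80 higher in emN1 on average. This ratio and the 5 other ratios given below were chosen after their values were seen, so they are descriptions with no test. Differences in these ratios are between plain group means, without the array set as a term.

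**Figure D1:**
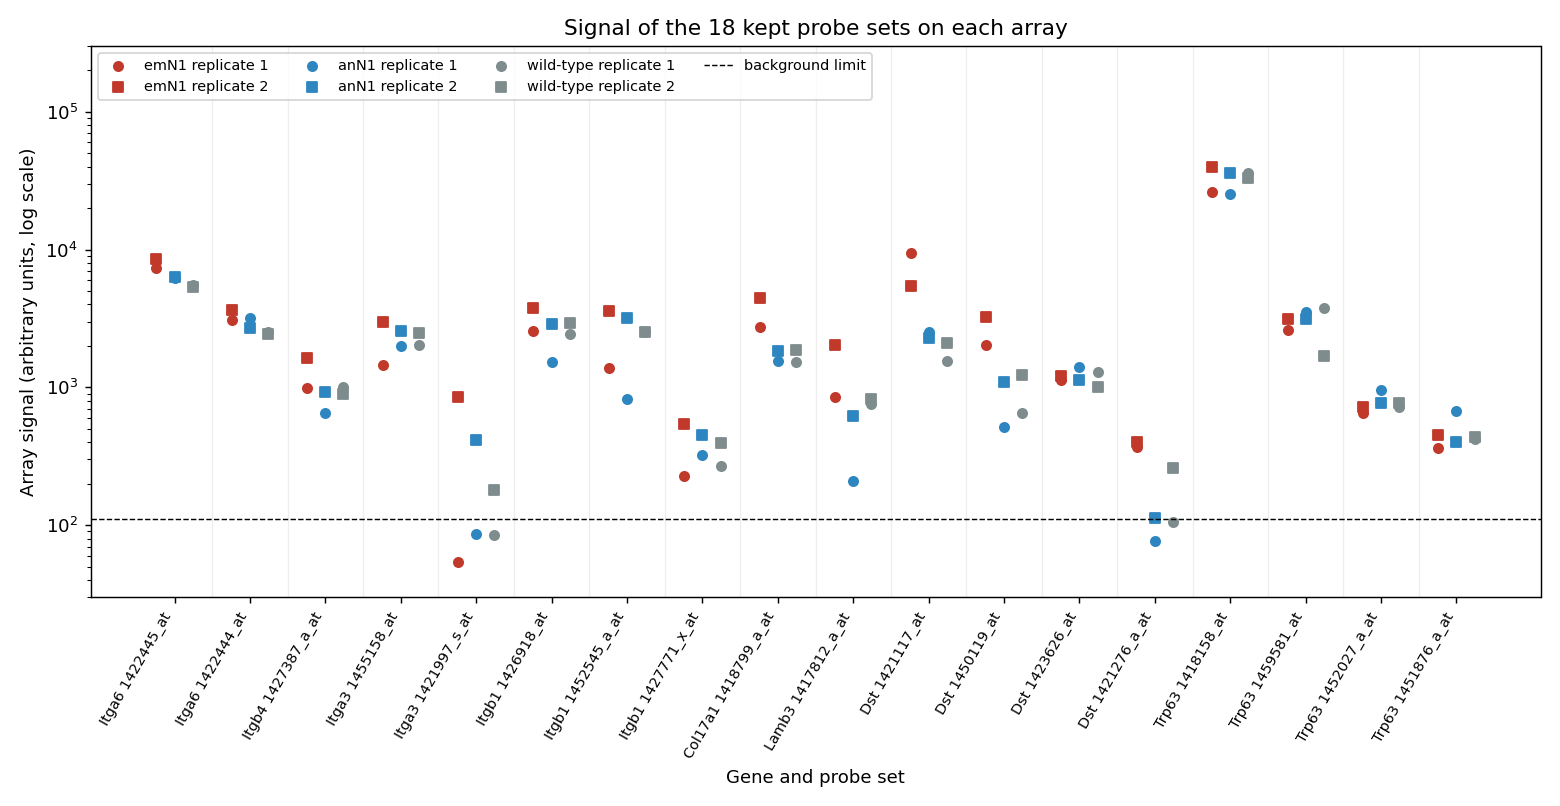
Signal (arbitrary units, log axis) of each of the 18 tested probe sets on each array, with emN1 in red, anN1 in blue and wild-type in grey; circles are replicate 1 and squares replicate 2, and the dashed line is the background limit of 112. Both emN1 points stand above all 4 control points for Lamb3, Col17a1, 3 of the 4 Dst probe sets and 1 Itga6 probe set.

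Itga6 encodes integrin α6, which pairs with β4 in hemidesmosomes and is a standard surface marker of basal keratinocytes. Its brighter probe set (1422445_at) had 7331 and 8564 in emN1 bulbs, 6214 and 6271 in anN1 bulbs, and 5537 and 5309 in wild-type bulbs. The 3 groups did not overlap, with emN1 highest and wild-type lowest. The difference of 0.45 (SE 0.13, adjusted p = 0.112 by limma), or 1.36-fold, did not pass, and its 95% interval ran from 0.15 to 0.74. It did not pass against anN1 (0.34, SE 0.12, adjusted p = 0.288) or against wild-type (0.61, SE 0.14, adjusted p = 0.0922). The second probe set (1422444_at) had 3090 and 3619 in emN1 bulbs, 3193 and 2678 in anN1 bulbs, and 2515 and 2418 in wild-type bulbs. There emN1 replicate 1 lay below its anN1 partner, and the difference of 0.29 (SE 0.16) did not pass (adjusted p = 0.431).

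Itgb4 encodes integrin β4, whose long cytoplasmic tail docks plectin. Its probe set (1427387_a_at) had 992 and 1646 in emN1 bulbs, 647 and 922 in anN1 bulbs, and 1012 and 893 in wild-type bulbs. The groups overlapped, since emN1 replicate 1 was just below wild-type replicate 1. The difference was 0.72 (SE 0.18, adjusted p = 0.0797 by limma), or 1.65-fold, with a 95% interval of 0.30 to 1.14. The ratio of emN1 to anN1 was 1.53 in set 1 and 1.79 in set 2. The log2 ratio of Col17a1 to Itgb4 was 1.46 and 1.42 in emN1 bulbs, 1.25 and 0.98 in anN1 bulbs, and 0.58 and 1.05 in wild-type bulbs. It was 0.48 higher in emN1 on average.

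Itgb1 encodes integrin β1, the partner of α3 and of many other α subunits. Its brightest probe set (1426918_at) had 2574 and 3779 in emN1 bulbs, 1518 and 2897 in anN1 bulbs, and 2420 and 2911 in wild-type bulbs. The groups overlapped, and the difference of 0.58 (SE 0.15, adjusted p = 0.0839 by limma) did not pass. Another probe set (1452545_a_at) had 1392 and 3581 in emN1 bulbs, 822 and 3182 in anN1 bulbs, and 2527 and 2512 in wild-type bulbs. Here both arrays of set 1 lay below all 4 arrays of set 2, whatever their group. With set as a term its difference was 0.53 (SE 0.17, adjusted p = 0.153). The dimmest tested (1427771_x_at) gave 0.14 (SE 0.36, adjusted p = 0.902). The remaining 3 Itgb1 probe sets were too dim to be tested, with at most 115 on any array.

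Itga3 encodes integrin α3. Its brightest probe set (1455158_at) had 1464 and 2995 in emN1 bulbs, 2003 and 2581 in anN1 bulbs, and 2040 and 2481 in wild-type bulbs. The emN1 arrays were the lowest and the highest of the 6, and the difference of 0.03 (SE 0.21, adjusted p = 0.972 by limma) had a 95% interval of -0.44 to 0.50. A dim probe set (1421997_s_at) had 54.0 and 857 in emN1 bulbs, 86.1 and 416 in anN1 bulbs, and 85.4 and 181 in wild-type bulbs, with 3 arrays under the background limit. Its difference of 1.03 (SE 0.73, adjusted p = 0.551) did not pass. The third Itga3 probe set (1460305_at) was too dim to be tested and was under the background limit on 4 of 6 arrays.

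Trp63 was read by 4 probe sets, none of which passed. The brightest (1418158_at) had 26228 and 39964 in emN1 bulbs, 25190 and 35743 in anN1 bulbs, and 36204 and 33300 in wild-type bulbs. Its mean control signal was higher than that of 98% of the probe sets tested, and the groups overlapped fully. The difference of 0.14 (SE 0.08, adjusted p = 0.486 by limma) had a 95% interval of -0.06 to 0.33, which holds no change as large as the estimates for Lamb3, Col17a1 or the 2 called Dst probe sets. A second probe set (1459581_at) had 2594 and 3132 in emN1 bulbs, 3510 and 3116 in anN1 bulbs, and 3765 and 1685 in wild-type bulbs, a difference of -0.05 (SE 0.31, adjusted p = 0.968). The third (1452027_a_at) had 652 and 715 in emN1 bulbs, 949 and 772 in anN1 bulbs, and 719 and 771 in wild-type bulbs. It was the only probe set of the 18 with both emN1 arrays below every control, by a narrow margin, and its difference of -0.26 (SE 0.21) did not pass (adjusted p = 0.625). The dimmest (1451876_a_at) had 363 and 448 in emN1 bulbs, 670 and 403 in anN1 bulbs, and 425 and 437 in wild-type bulbs, a difference of -0.29 (SE 0.29, adjusted p = 0.703). Which of the p63 isoforms each one reads is not given in the sources used here.

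Within each array, the log2 ratio of Dst (1421117_at) to Trp63 (1418158_at) was 1.78 higher in emN1 bulbs than in controls, that of Lamb3 1.26 higher and that of Col17a1 1.04 higher. The ratio of Dst to Itga6 (1422445_at) was 1.34 higher. These values are differences of plain group means, without the array set as a term, unlike the differences of single probe sets above. A ratio within an array does not depend on the scaling of that array.

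**Figure D2:**
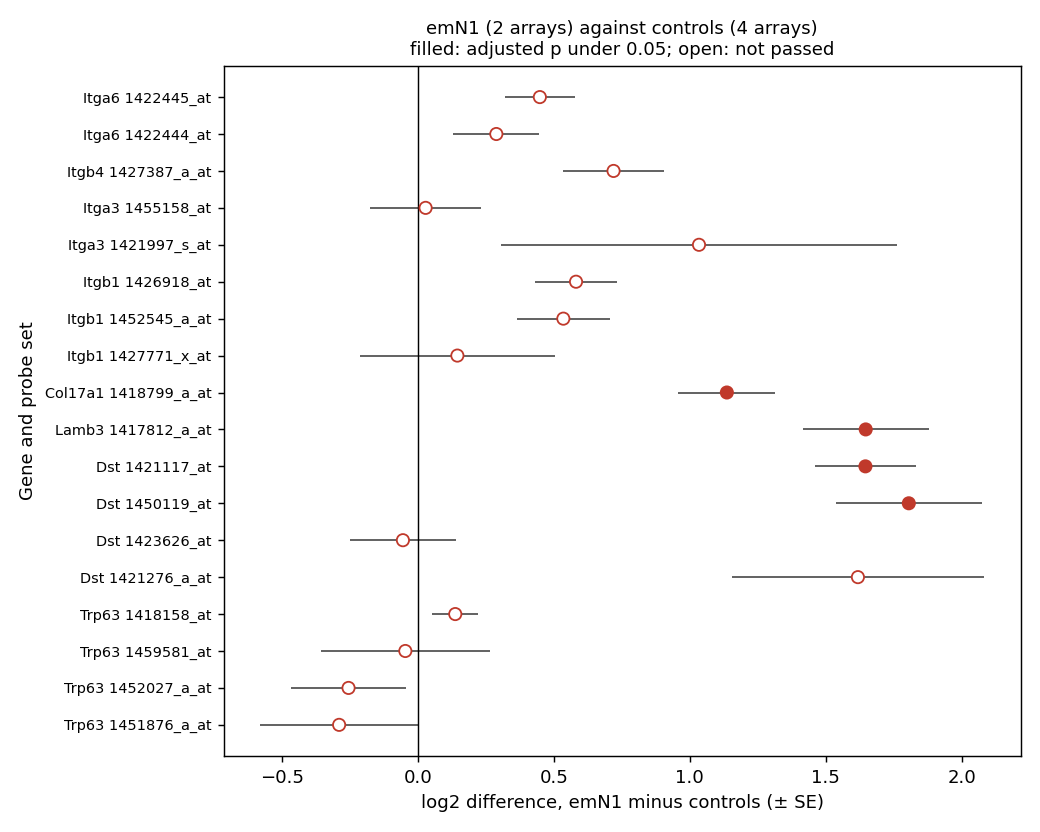
Difference between 2 emN1 and 4 control arrays on the scale log2(signal + 17.8) for the 18 tested probe sets, with bars of 1 SE; filled points passed the threshold. Lamb3, Col17a1 and 2 Dst probe sets passed, between 1.14 and 1.81, while all Trp63 points lay between -0.29 and 0.14.

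Set against each control group alone, 3 of the 18 probe sets were called higher in emN1 than in anN1 (Lamb3 and the 2 Dst probe sets), against 1.35% of all probe sets tested called higher and 0.662% lower. Against wild-type, 3 were called higher (Col17a1 and the same Dst pair), against 1.53% higher and 0.629% lower over all. Both counts were 0 without the trend and when any single emN1 or anN1 array was left out; without the set term they were 0 against anN1 and 1 against wild-type. The median difference of the 18 was 0.29 against anN1 and 0.60 against wild-type. These comparisons share the emN1 arrays and 1 estimate of the spread. That Lamb3 passed against anN1 alone and Col17a1 against wild-type alone is no test of a difference between the controls. That test, anN1 minus wild-type, called 0 of the 18 probe sets by limma (1 at an unadjusted p under 0.05), against 0.0518% called higher and 0.0222% lower over all. Lamb3 was -0.40 in anN1 relative to wild-type (SE 0.28), with a 95% interval of -1.06 to 0.26, and Col17a1 was 0.24 (SE 0.22), with an interval of -0.28 to 0.76.

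**Figure D3:**
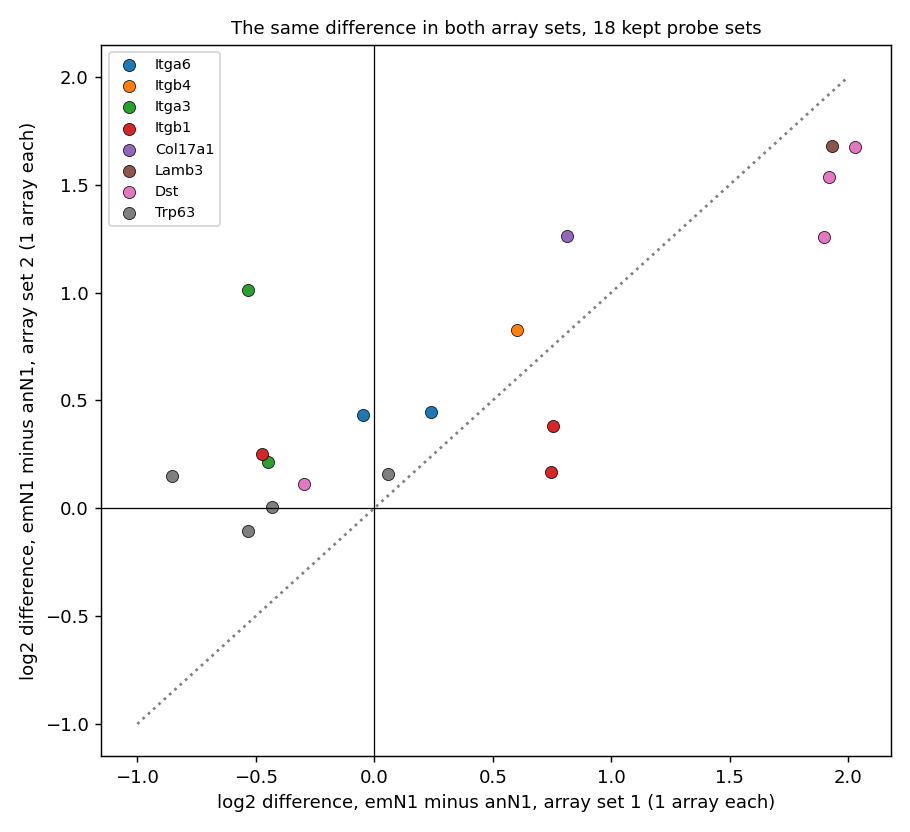
Difference between emN1 and anN1 (log2 scale) in array set 1, across, and in array set 2, up, for the 18 tested probe sets, with 1 array a group in each set; the dotted line marks equal values. Lamb3, Col17a1 and 3 Dst probe sets were above 0.8 in both sets, while 3 of the 4 Trp63 probe sets were below 0 in set 1.

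Related genes were described by lists chosen with earlier results of these data known, each gene by its brightest tested probe set. Over all 12611 genes, 3.58% were called higher and 1.83% lower, with a median difference of -0.02. Of 23 basement membrane genes tested, 10 rose, 1 fell and 12 did not pass, with a median of 0.69. That list includes matrix genes that are not only of basement membranes. Among them Fn1 was called higher (0.87, another probe set -0.50) and Tnc did not pass (0.60). Called basement membrane genes numbered 0 to 11 when an array was left out, 2 without the set term and 0 without the trend. Nid2, a nidogen that links laminin to collagen IV, had 655 and 751 in emN1 bulbs, 254 and 254 in anN1 bulbs, and 181 and 253 in wild-type bulbs, a difference of 1.52 (SE 0.30). Col7a1, the collagen of the anchoring fibrils under hemidesmosomes, rose by 1.47 (SE 0.30). Col4a2, a chain of the collagen IV network, rose by 1.29 (SE 0.13). Egfl6, an integrin-binding matrix protein made by hair follicle epithelium, had 312 and 604 in emN1 bulbs, 1276 and 2620 in anN1 bulbs, and 1758 and 2187 in wild-type bulbs, and fell by 1.87 (SE 0.21). Lama3, which encodes the α3 chain of laminin-332, was 1.05 higher (SE 0.28, adjusted p = 0.0957 by limma) and did not pass.

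Among 6 hemidesmosome partners, 2 rose and 4 did not pass, with a median of 0.17. Those that rose were Krt14 (1.15, SE 0.11) and Krt5 (0.65, SE 0.08), the keratin pair of basal cells that hemidesmosomes anchor. Another 2 Krt14 probe sets gave 0.14 and 1.52, of which 1 was called. Plec, which encodes plectin, was 0.21 (SE 0.10, adjusted p = 0.359 by limma). None of the 11 other integrin subunits tested passed by limma (median 0.19), with 1 at an unadjusted p under 0.05 and 1 passing by the mean of each gene's probe sets; those with the smallest p were Itga4 at 1.61 (SE 0.40) and Itga5 at 1.04 (SE 0.49). Among 20 integrin adaptors, 19 did not pass, with a median of 0.23, and Parvb, a parvin that joins integrin-linked kinase to actin, fell by 1.61 (SE 0.29). The adaptors' count was 0 without the trend, emN1 replicate 2 or anN1 replicate 2.

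Of 16 genes of the p53 family or known as p63 targets, 4 rose, 1 fell and 11 did not pass, with a median of 0.12. They share Krt5, Krt14 and Fras1 with the lists above. Trp73, a p53 family member, rose by 1.33 (SE 0.28), while another of its probe sets gave 0.59 and was not called. Fgfr2, an epithelial growth factor receptor, rose by 0.68 (SE 0.11). Another 2 Fgfr2 probe sets gave 0.86 and 1.10, of which 1 was called. Grhl3, a transcription factor of the epidermal barrier, had 1196 and 1425 in emN1 bulbs, 2039 and 3237 in anN1 bulbs, and 3848 and 3128 in wild-type bulbs, and fell by 1.05 (SE 0.17). Perp, a p63 target in desmosomes, was -0.03 (SE 0.08). Called genes of this list numbered 0 to 5 when an array was left out, 1 without the set term and 0 without the trend, and those of the hemidesmosome partners 0 to 2, 1 and 0.

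**Figure D4:**
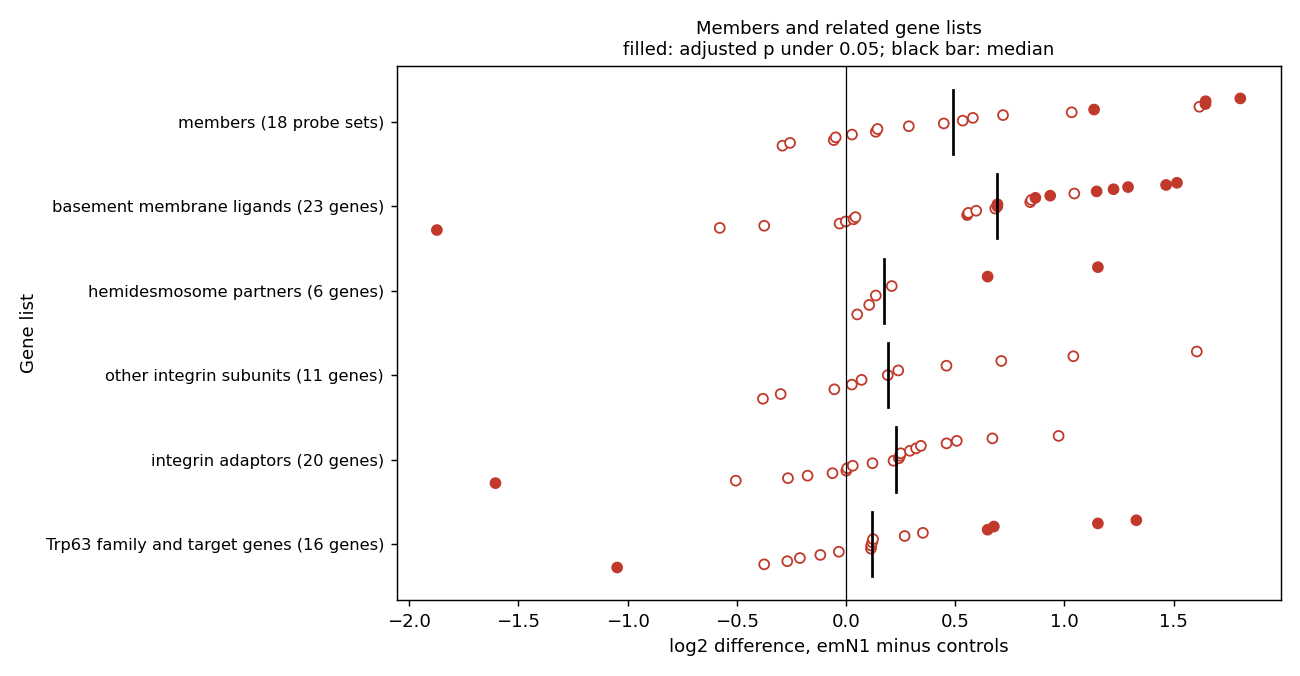
Difference between emN1 and control arrays (log2 scale) for the 18 probe sets of the 8 genes and for the genes of 5 related lists, 1 point each; filled points passed the threshold and black bars are medians. The 8 genes have a median of 0.49, and 10 of 23 basement membrane genes lie past the threshold above 0.

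Notch1 itself (1418634_at) was lowest in emN1 bulbs, at 6498 and 6292, against 15077 and 12527 in anN1 bulbs and 23750 and 34070 in wild-type bulbs. Its dimmer probe set (1418633_at) had 821 and 1561 in emN1 bulbs, 1581 and 2789 in anN1 bulbs, and 2833 and 3720 in wild-type bulbs, where the highest emN1 array was just below the lowest anN1 array. Whether either probe set lies in the deleted stretch is not given in the sources used here. Array medians ran between 220 and 263. All cell type lists were detected in part, and several moved with the groups, so that a change in a cell's RNA and a change in the share of cells cannot be told apart in these bulk samples. Of the 9 outer root sheath and basal markers tested, 4 rose and 1 fell. Their summed signal was 244266 to 262209 in emN1 bulbs, 210752 to 221916 in anN1 bulbs and 197845 to 210993 in wild-type bulbs. Sums of this kind, here and below, weigh the brightest genes most. Perp (-0.03) and Gjb2 (-0.13), the brightest here, did not pass. Krt15 had 47214 and 38966 in emN1 bulbs, 11444 and 15063 in anN1 bulbs, and 11281 and 12800 in wild-type bulbs. Of 8 suprabasal markers 3 rose, with sums of 127677 to 137246 in emN1, 59155 to 71144 in anN1 and 59954 to 60593 in wild-type. Of 9 fibroblast and dermal papilla markers 5 rose, with sums of 104780 to 124273 in emN1, 72108 to 74931 in anN1 and 68612 to 88148 in wild-type. Smooth muscle and pericyte markers (3 of 4 rose) summed to 39779 to 40579 in emN1, 18732 to 22461 in anN1 and 15447 to 15827 in wild-type. Immune markers (3 of 7 rose) summed to 5126 to 5382 in emN1, 1266 to 1306 in anN1 and 1348 to 1382 in wild-type. Of 8 melanocyte markers 7 fell, with sums of 97356 to 114804 in emN1, 276526 to 318140 in anN1 and 223519 to 241777 in wild-type. Of 9 hair matrix and shaft markers 2 rose, with sums of 230118 to 246032 in emN1, 154288 to 213095 in anN1 and 109423 to 114315 in wild-type, and of 8 inner root sheath markers 1 rose. Of Schwann cell markers 1 of 5 rose and 1 fell, and no tested marker of endothelium, skeletal muscle or adipocytes passed by limma (1 of 8 at an unadjusted p under 0.05). The 3' to 5' signal ratio of the actin control, a sign of RNA integrity, was 4.59 and 2.39 in emN1, 5.64 and 2.39 in anN1, and 2.71 and 2.66 in wild-type, highest in set 1. That of the Gapdh control was 4.79 and 4.90 in emN1, 6.96 and 4.64 in anN1, and 5.45 and 5.03 in wild-type, where the emN1 array of set 1 was not high. The part of these shifts in the differences of Lamb3, Col17a1 and Dst was not tested.

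Over the 6 arrays, the genes whose log2 values ran most like each of the 8 were found by Pearson's r among probe sets with an SD of at least 0.3. They describe 6 points that share groups and array sets. For Dst (1421117_at) they were Igfbp7, Rnase4, Clic4, Loxl1 and Cald1, with r between 0.994 and 0.998. For Lamb3 they were Usp7, Lactb2, Rhbdl3, Flrt3 and Slc26a4 (0.981 to 0.997), and for Col17a1 Minpp1, Me1, Eif4e3, Txndc5 and Svip (0.986 to 0.989). For Itga6 they were Arhgap20, Syde2, Slc10a6, Ctif and Etnk1 (0.990 to 0.991), and for Itgb4 Nacc2, Synpo, Osbpl5, Itpr3 and Fam118a (0.990 to 0.997). For Itgb1 they were Bpgm, Rhbdl2, Vopp1, Wipi1 and Cpa3 (0.994 to 0.995), and for Itga3 Akap1, Dnm2, Pla2g4d, Col15a1 and 4933433N18Rik (0.983 to 0.993). For Trp63 (1418158_at) they were Dmd, Ppp1r10, Sbf1, Ppp1r12a and Pon2 (0.994 to 0.997). No 2 of these 8 sets of 5 share a gene. Each set was picked from 13224 probe sets, so high r and the lack of a shared gene say little about distinct patterns. Among the 8 genes themselves, brightest probe sets, Itgb4 ran closest to Lamb3 (r = 0.956), Itgb1 to Lamb3 (0.943) and Itga6 to Col17a1 (0.903). Trp63 (1418158_at) had r = 0.79 with Itga3, 0.78 with Itgb1, 0.73 with Itgb4 and 0.71 with Lamb3. With Col17a1 it had r = 0.32, with Itga6 0.10 and with Dst (1421117_at) -0.29.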

How the data were processed

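Expression was measured in 6 samples of hair bulb RNA on 1 array each. Each probe set has 1 deposited intensity per array, made by the authors with MAS5 per the submitters' processing notes, which give no version. Groups and replicate numbers came from the sample titles and array sets from the design text. Replicates are labelled biological, but separate animals are not stated, so the spread behind the p-values may be technical. Members and gene lists were chosen with earlier results of these data known.

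Of 45101 probe sets, 64 were controls and left out. The annotation gave 34958 probe sets 1 symbol, 932 several and 9211 none; 34754 matched RefSeq's table for GRCm38.p6 by gene identifier and 0 changed. The brightest 60% by mean log2(signal + 17.8) entered the tests (27022 probe sets), where 17.8 is the table's 10th percentile. Limma 3.58.1 in R 4.3.3 (lmFit, eBayes with an intensity trend) fitted emN1 against 4 controls (3 residual degrees of freedom), and 3 groups (2), with array set as a term, two-sided. This term is the replicate block of emN1 and anN1, whose numbers match the sets: their deviations correlated with r = 0.38 across 27022 probe sets, against -0.19 and -0.02 for pairs with wild-type. Scripts were tested on simulated data. The precision is limited by the number of arrays.

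All 8 genes were named. Lists were illustrated by the called genes of greatest change (4 at most) or, with no call, by the 2 of smallest p. Lama3, Plec and Perp were named as well, after their values were seen. Alternatives were other pseudocounts, filters, scalings and floors, no trend, no replicate block, the emN1 and anN1 arrays alone, the 4 arrays of set 2 alone (values only), gene means for the lists, and each array left out. Figures used matplotlib 3.10.9.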

Additional observations from a re-analysis of the deposited data

Results flagged for a closer look

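On 1 of the 18 tested probe sets, 1 of the 4 control arrays stood far from the other three: Trp63 (1451876_a_at) had a signal of 670 on anN1 replicate 1, and its gap to the next array was 0.84 of the range. Chance marks about 1 in 20 groups of 4 interchangeable arrays in this way, but anN1 replicate 1 was the only control in array set 1, so these 4 were not interchangeable.

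Among the control probe sets that were left out of the tests, 2 of 4 for the bacteriophage recombinase Cre had signal above the background limit of 112 on every array of both deleted groups. One (CreX-3) averaged 438 over the emN1 and anN1 arrays, against 70.7 over the wild-type arrays. The other (r2-P1-cre-3) averaged 435, against 16.7 in wild-type. Single arrays of CreX-3 were 434 and 409 in emN1, 395 and 515 in anN1, and 62.4 and 79.0 in wild-type. Of the other two, r2-P1-cre-5 had 205 and 93.7 in emN1, 124 and 187 in anN1, and 11.05 and 33.4 in wild-type. CreX-5 was under the limit on all 6 arrays, at 71.1 and 101 in emN1, 11.4 and 27.4 in anN1, and 3.12 and 4.25 in wild-type.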

How the results depend on the processing

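The differences of Lamb3, Col17a1 and the 2 called Dst probe sets stayed above 0 in all 13 settings, which include the main fit. They were 1.27 to 1.93, 0.81 to 1.35, 1.48 to 1.90 (1421117_at) and 1.61 to 1.92 (1450119_at), but their calls did not hold in all. These probe sets were picked because they were called. The trend and the filter on dim probe sets cannot change a difference. Leaving out emN1 replicate 1 or anN1 replicate 1 gave the same difference, so the settings are not separate checks. Without the intensity trend, limma called 0 probe sets (4044 at an unadjusted p under 0.05) and 0 of the 18 (9 at p under 0.05). All 4 member calls were also lost without emN1 replicate 1, emN1 replicate 2 or anN1 replicate 1. Their adjusted p there was 0.0552, 0.231 and 0.0508 for Col17a1, 0.106, 0.122 and 0.0844 for Lamb3, 0.0691, 0.102 and 0.0616 for Dst 1421117_at, and 0.131, 0.164 and 0.119 for Dst 1450119_at. Without the first array of emN1 or anN1, set 1 holds 1 array, which the set term absorbs. Dst 1421276_a_at gained a call without wild-type replicate 2 (adjusted p = 0.0429).

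Without the replicate block, emN1 against controls gave 286 calls in place of 1020 and 1 of the 18 in place of 4 (Dst 1421117_at), while Lamb3 had an adjusted p of 0.497. Leaving out an array gave 1 to 1092 calls and 0 to 5 of the 18. For emN1 against anN1, 545 calls and 3 of the 18 became 0 and 0 without the trend (3109 and 7 at p under 0.05), and 42 and 0 (5 at p under 0.05) without the replicate block. They became 1261 calls when those 4 arrays were fitted alone with the replicate block, and 0 to 1269 and 0 to 5 with an array left out. For emN1 against wild-type, 584 and 3 became 0 and 0 without the trend (3003 and 7 at p under 0.05), 215 and 1 without the replicate block, and 0 to 1375 and 0 to 4 with an array left out. For anN1 against wild-type, 20 calls became 0 without the trend (1118 at p under 0.05) and 0 to 173 with an array left out, and 0 of the 18 were called in every setting. Col17a1 against anN1 passed by limma with quantile normalization (adjusted p = 0.0476) and with signals raised to the background limit (0.0440). It also passed when the emN1 and anN1 arrays were fitted alone (0.00294). Lamb3 against wild-type passed without either wild-type array (0.0411 each), and Dst 1450119_at missed with no filter against anN1 (0.0511) and wild-type (0.0501). On the 4 arrays of set 2 alone, given as values with no test, the emN1 difference was 1.26 from anN1 and 1.39 from wild-type for Col17a1, 1.68 and 1.35 for Lamb3, 1.26 and 1.59 for Dst 1421117_at, and 1.54 and 1.82 for Dst 1450119_at. Of the differences of the 18 there, 7 moved by more than the SD of the 4 controls, all of them against anN1, and 47 did not. Why the calls moved was not tested.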
